A study of Homo sapiens with 12 samples.

Results

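The levels of 10 genes of glutathione synthesis and of the NRF2 pathway were followed in K562. This established human line came from a chronic myeloid leukaemia and carries the BCR-ABL1 fusion kinase. The 10 genes, NFE2L2, KEAP1, NQO1, GCLC, GCLM, GSS, GSR, GPX1, GPX4 and GSTP1, were taken by name, and every probe set whose annotation names 1 of them was read. This gave 14 probe sets of 22277 on the array, and 10 genes of 11963 that a probe set named alone. RNA was measured on 12 arrays after 24 h in culture with the solvent DMSO (4 arrays, replicates 9 to 12), with 0.5 µM imatinib (4 arrays, replicates 5 to 8) or with 0.05 µM nilotinib (4 arrays, replicates 1 to 4). Imatinib (STI571) and nilotinib (AMN107) inhibit the ABL kinase, and their doses differed. All 3 groups were the same line in the same medium, and the labels name no genetic change in any of them. Whether each array had its own culture is not stated in the labels. The p-values therefore measure only the spread between these arrays, which may be technical.

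NRF2, the product of NFE2L2, is a transcription factor that switches on genes for defence against oxidants and electrophiles. KEAP1 holds it in the cytosol and hands it to a ubiquitin ligase for destruction, and oxidants that modify cysteines of KEAP1 release it. Inside the nucleus NRF2 pairs with a small MAF protein at the antioxidant response element, where BACH1, a repressor that senses heme, competes for the same site. Glutathione, a tripeptide of glutamate, cysteine and glycine, is made in a pair of steps by glutamate-cysteine ligase (catalytic subunit GCLC, modifier subunit GCLM) and glutathione synthetase (GSS). Glutathione reductase (GSR) regenerates it with NADPH, glutathione peroxidases spend it on peroxides, and transferases such as GSTP1 attach it to foreign compounds.

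Promoter sequences from RefSeq (GRCh38.p14) were used for 8 of the 10 genes, 12 promoters in all, and those of GSS and GSR were not analysed here. Each reached from 250 bases before the start to 50 bases after it. The letters TGACNNNGC, the core of the antioxidant response element, were searched on both strands. They were found in 4687 of 35116 promoters of this length (13.3%) and in 3 of the 12 promoters of these genes. The GCLM promoter held TGACTAAGC on the strand opposite to the gene at -34 to -26, and the GSTP1 promoter held TGACTCAGC on the gene's own strand at -66 to -58. One KEAP1 promoter held TGACACGGC at -54 to -46 on the gene's strand and TGACTAAGC at -31 to -23 on the other strand. No match lay in this window for NFE2L2, NQO1, GCLC, GPX1 or GPX4 or for the other KEAP1 promoter, which says only that these letters were not in the window. The 250 bases before the start are printed for GCLC and GCLM, the 2 subunits of 1 enzyme that gave different results, and for NQO1 and GSTP1, which are often read as indicators of NRF2. They run 5′ to 3′ on the gene's strand, with the matched letters in capitals.
GCLC (chr6:53545102-53545351, minus strand): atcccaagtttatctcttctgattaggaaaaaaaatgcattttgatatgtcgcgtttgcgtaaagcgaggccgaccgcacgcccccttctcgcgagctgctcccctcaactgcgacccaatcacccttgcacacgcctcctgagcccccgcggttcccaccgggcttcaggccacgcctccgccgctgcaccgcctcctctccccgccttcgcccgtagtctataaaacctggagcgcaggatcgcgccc
GCLM (chr1:93909431-93909680, minus strand): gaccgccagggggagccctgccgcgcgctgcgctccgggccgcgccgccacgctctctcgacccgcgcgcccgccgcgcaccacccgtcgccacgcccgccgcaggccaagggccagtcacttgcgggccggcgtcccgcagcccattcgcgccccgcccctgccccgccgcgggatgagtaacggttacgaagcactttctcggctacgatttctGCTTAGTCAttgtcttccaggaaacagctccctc
NQO1 (chr16:69726561-69726810, minus strand): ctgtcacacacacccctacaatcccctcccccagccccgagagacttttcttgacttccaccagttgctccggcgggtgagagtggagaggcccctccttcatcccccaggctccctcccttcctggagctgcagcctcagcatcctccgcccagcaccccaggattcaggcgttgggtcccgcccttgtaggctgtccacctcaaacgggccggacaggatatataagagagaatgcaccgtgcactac
GSTP1 (chr11:67583562-67583811, plus strand): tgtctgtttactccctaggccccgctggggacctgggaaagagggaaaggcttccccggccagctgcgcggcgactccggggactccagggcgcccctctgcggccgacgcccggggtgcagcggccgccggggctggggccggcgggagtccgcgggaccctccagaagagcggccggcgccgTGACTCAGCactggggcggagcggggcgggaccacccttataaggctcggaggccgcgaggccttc

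Signals are MAS5 intensities on a linear scale, and changes are differences of log2(signal + 16), which understate the change of dim genes. Calls required an adjusted p under 0.05 from limma, with Benjamini-Hochberg adjustment over the 8021 genes tested. Of the 10 members, 9 passed the filter on low values, and GPX1 did not. With imatinib 2 of the 9 rose (GCLC and GSTP1), 3 fell (NFE2L2, NQO1 and GSS) and 4 were not called, where 22.0% of all genes tested were called higher and 17.3% lower. With nilotinib 1 rose (GCLC), 4 fell (NFE2L2, NQO1, GSS and GPX4) and 4 were not called, where 34.7% of all genes were called higher and 23.5% lower. The median change of the 9 members was -0.02 with imatinib and -0.26 with nilotinib, beside 0.09 and 0.15 over all genes tested. Both comparisons use the same 4 DMSO arrays. In bulk RNA, fewer cells of a kind and less RNA per cell cannot be told apart.

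**Figure D1:**
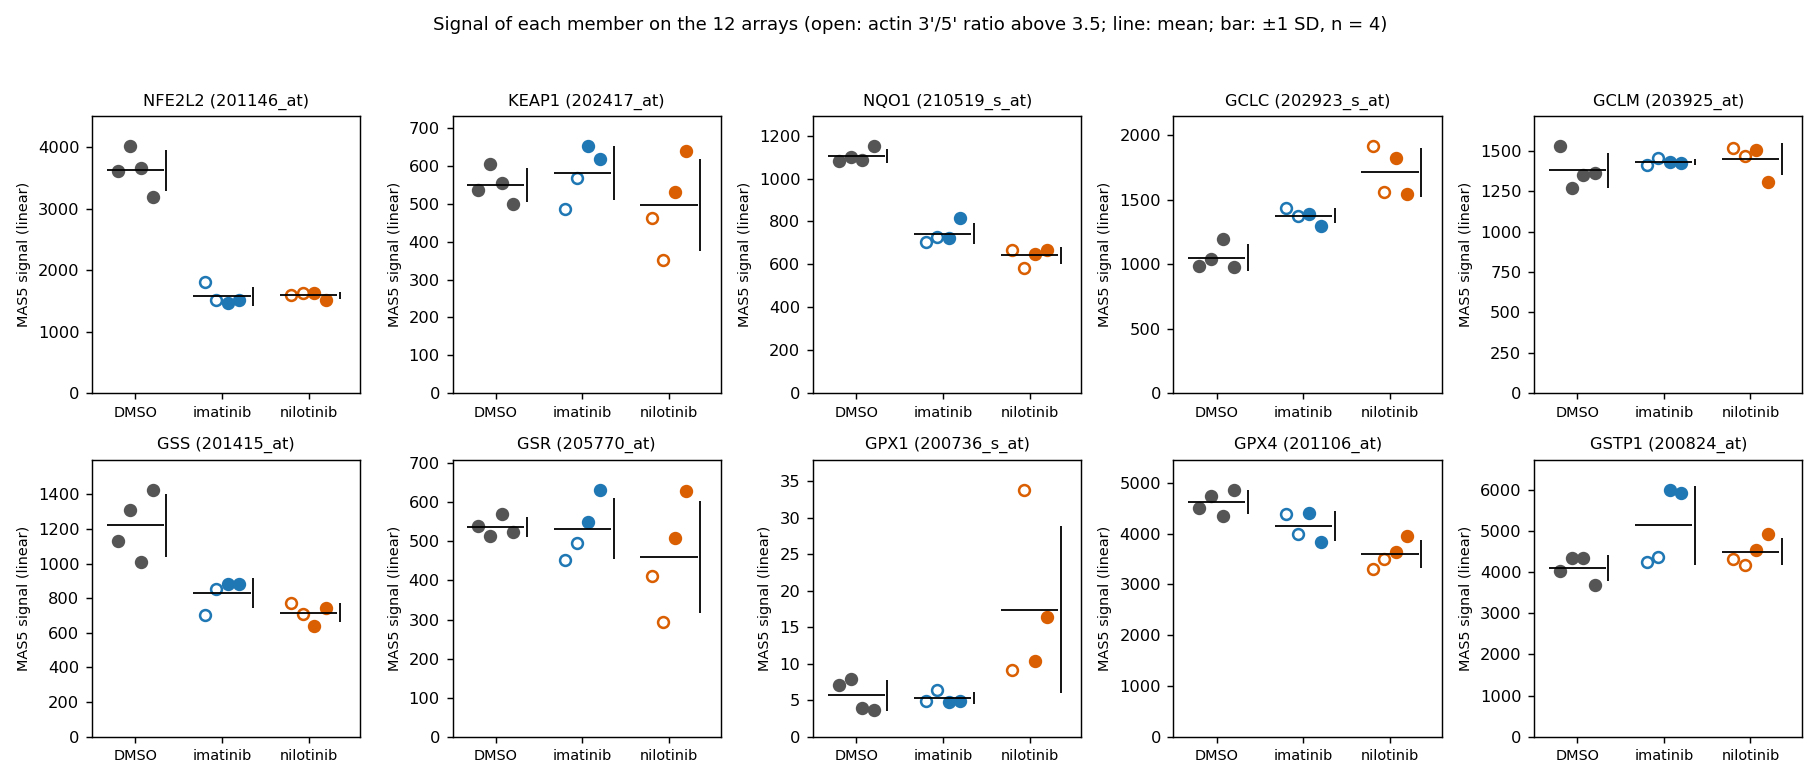
Linear MAS5 signal of each of the 10 genes on the 12 arrays, by group (the probe set used for the gene, or for GPX1 its only one). Points are arrays, open points are the 4 arrays with an actin 3'/5' ratio above 3.5, lines are means and bars are ±1 SD (n = 4). NFE2L2 lay at 3200.4 to 4027 with DMSO and at 1465 to 1800.1 with the drugs, while GCLC stepped up from DMSO to imatinib to nilotinib.

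The arrays differed between groups in ways that touch dim genes most. The DMSO arrays had median signals of 117 to 121, the imatinib arrays 135 to 155 and the nilotinib arrays 166 to 194, although the trimmed means were all near 500. The bacterial control probe sets had medians of 5.60 to 8.79, 9.27 to 18.9 and 12.8 to 24.7 in the same order. Centring every array on its median moved the median change of all genes tested to -0.13 for imatinib and -0.37 for nilotinib against DMSO, so small changes depend on the scaling. With median centring 820 genes were called higher and 2276 lower with imatinib, against 1767 and 1390 as deposited, and 831 and 3947 with nilotinib, against 2781 and 1885. On 4 arrays (nilotinib replicates 1 and 2, imatinib replicates 5 and 6) the actin 3'/5' signal ratio was above 3.5, which can mark shorter RNA. The line's identity was checked with markers. All 11 erythroleukaemia genes measured, among them GATA1, KLF1 and the embryonic globins HBE1 and HBZ, passed the filter, with median signals of 366 to 22439. Of the other lists, 5 of 9 lymphocyte genes passed with medians of all 9 at 13.0 to 189.6, 2 of 8 granulocyte and monocyte genes (LYZ at a median of 2425 and ITGAM at 915, within the range of the erythroleukaemia genes), and 2 of 6 fibroblast genes (COL1A1 at 299 and DCN at 156).

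The transcript of NRF2 itself fell the most of the 9 members with either drug. The 4 DMSO arrays read 3622, 4027, 3658 and 3200.4 for NFE2L2 (probe set 201146_at). The imatinib arrays read 1800.1, 1515, 1465 and 1506, and the nilotinib arrays 1595, 1627, 1625 and 1513. All 8 drug arrays lay below all 4 DMSO arrays, and the drug groups overlapped each other. The log2 change was -1.20 ± 0.08 (SE, n = 4 per group) with imatinib (limma, adjusted p = 7.69e-10) and -1.18 ± 0.08 with nilotinib (adjusted p = 5.71e-10). Each was called under all 21 alternatives tried. The difference between the drugs was 0.02, with a 95% interval of -0.15 to 0.19.

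KEAP1, the adaptor that marks NRF2 for destruction, was not called in any comparison. Its signals (202417_at) were 537, 605, 556 and 499 with DMSO. They were 486, 569, 654 and 618 with imatinib and 463, 350.3, 531 and 641 with nilotinib. The 3 groups overlapped, and in both drug groups the arrays of high actin ratio were the lowest. Its log2 change was 0.07 (95% interval -0.24 to 0.39; limma, adjusted p = 0.733) with imatinib and -0.17 (-0.49 to 0.15; adjusted p = 0.338) with nilotinib, so a change within these intervals is not excluded. Median centring gave a call of -0.69 with nilotinib (adjusted p = 8.08e-04), and without the 4 arrays of high actin ratio the nilotinib value turned to 0.09.

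NQO1, the quinone reductase most often used to read NRF2 activity, fell with both drugs on each of its 3 probe sets. The brightest, 210519_s_at, read 1080.3, 1099, 1088 and 1153 with DMSO. It read 704, 728, 724 and 816 with imatinib and 667, 585, 648 and 668 with nilotinib. No array of one group overlapped another group, in the order DMSO, imatinib, nilotinib. NQO1 changed by -0.56 ± 0.09 (SE) with imatinib (limma, adjusted p = 4.49e-05) and -0.77 ± 0.09 with nilotinib (adjusted p = 6.63e-07). The step from imatinib to nilotinib, -0.21 (95% interval -0.39 to -0.02), did not pass after adjustment (adjusted p = 0.124).

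The other NQO1 probe sets differed from it in size. Probe set 201468_s_at read 685, 688, 810.4 and 668 with DMSO, 356, 415, 369.7 and 318 with imatinib and 459, 365, 375 and 416 with nilotinib. Its changes were -0.94 with imatinib (limma over 11696 probe sets, adjusted p = 8.21e-06) and -0.80 with nilotinib (adjusted p = 3.10e-05), and on it the drug groups overlapped with the imatinib mean the lower. The dimmest, 201467_s_at, lay below the filter on its mean over all arrays. It read 230.2, 201, 211 and 181 with DMSO, 100.4, 28.1, 51.2 and 87.6 with imatinib and 14.4, 19.6, 13.5 and 18.2 with nilotinib. On this probe set the nilotinib arrays stood in the range of the bacterial control medians, so its size of change is not given. The order of the 2 drugs for NQO1 therefore depended on the probe set read, whereas the fall against DMSO was seen on all 3.

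**Figure D2:**
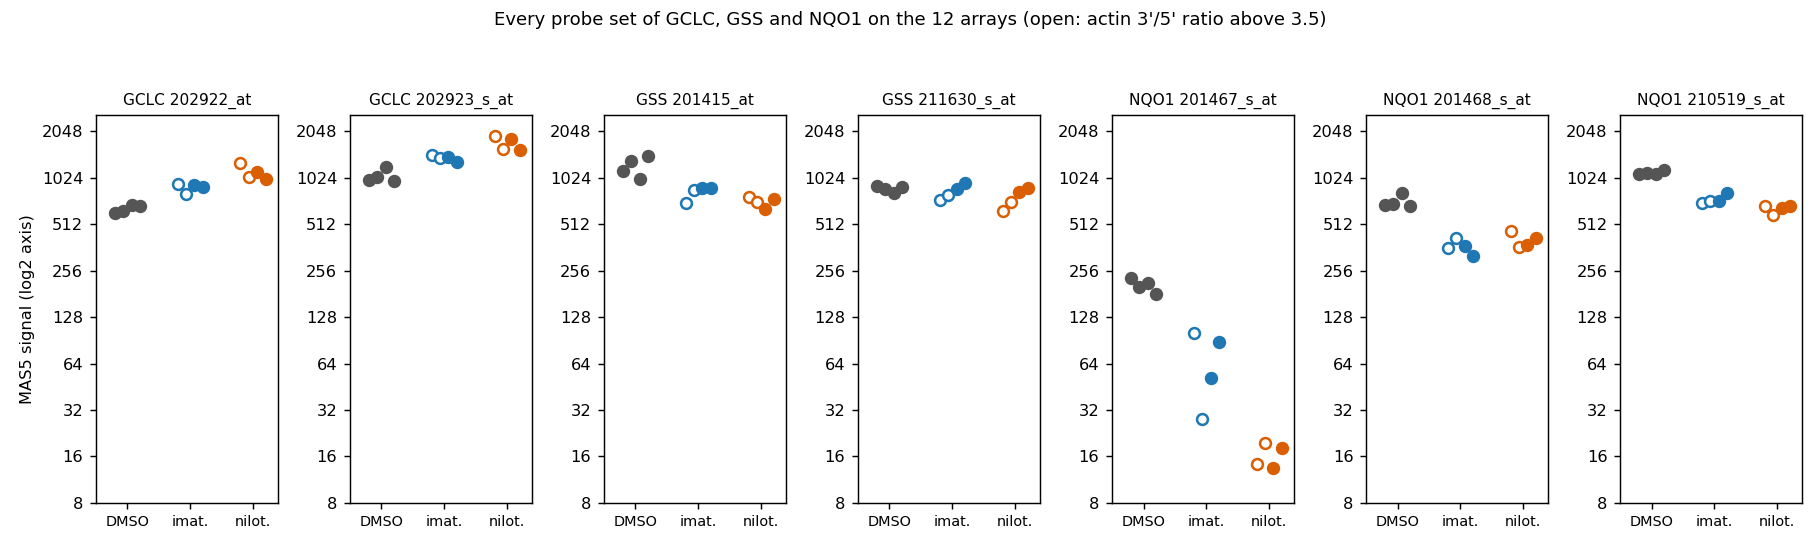
MAS5 signal, on a log2 axis shared by all panels, of every probe set of GCLC, GSS and NQO1 on the 12 arrays by group; open points are arrays with an actin 3'/5' ratio above 3.5. Both GCLC probe sets step up from DMSO to nilotinib, the GSS probe sets differ from each other, and NQO1 is lower with both drugs on 3 probe sets.

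The catalytic subunit of glutamate-cysteine ligase, GCLC, rose with both drugs while the modifier subunit GCLM was not called. GCLC read 988, 1041, 1197 and 978 with DMSO on 202923_s_at. It read 1434, 1374, 1392 and 1295 with imatinib and 1918, 1563, 1824 and 1540.3 with nilotinib. The 3 groups did not overlap and rose in that order. The log2 change was 0.38 ± 0.09 (SE) with imatinib (limma, adjusted p = 0.00223) and 0.69 ± 0.09 with nilotinib (adjusted p = 3.24e-06). The second probe set, 202922_at, read 604 to 681 on the DMSO arrays, 804 to 932 on the imatinib arrays and 1003 to 1273 on the nilotinib arrays, again with no overlap, and gave 0.44 and 0.75.

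Median centring ended both GCLC calls, at 0.16 with imatinib and 0.17 with nilotinib (adjusted p = 0.303 and 0.214). The other 20 alternatives of each comparison kept them, with adjusted p down to 9.40e-04 and 5.68e-07. Under median centring GCLC still lay above the median of all genes, which was then -0.13 and -0.37.

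GCLM, which lowers the amount of glutamate that GCLC needs and eases its feedback inhibition, read 1533, 1271, 1352 and 1367 with DMSO on 203925_at. It read 1411, 1459.5, 1433 and 1424 with imatinib and 1518, 1469.7, 1506 and 1307 with nilotinib. All 3 groups overlapped. The change was 0.05 with imatinib (95% interval -0.11 to 0.22; limma, adjusted p = 0.621) and 0.07 with nilotinib (-0.10 to 0.24; adjusted p = 0.456). These intervals leave out a rise as large as that of GCLC with nilotinib, on the scaling as deposited. Under median centring the values turned to -0.17 and -0.45, the latter called lower (adjusted p = 7.09e-04).

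GSS, which adds glycine in the last step of synthesis, fell on 1 of its 2 probe sets. On 201415_at it read 1131, 1309.5, 1012 and 1426 with DMSO. It read 704, 855, 884 and 882 with imatinib and 769.9, 708, 642 and 743 with nilotinib, all below the DMSO arrays. GSS changed by -0.54 ± 0.11 (SE) with imatinib (limma, adjusted p = 8.00e-04) and -0.75 ± 0.11 with nilotinib (adjusted p = 1.73e-05), and both were called under all 21 alternatives. On 211630_s_at the groups overlapped. It read 901, 863, 811 and 886 with DMSO, 738, 786, 862 and 942 with imatinib and 625, 710.1, 834 and 873 with nilotinib. Its changes, -0.06 (adjusted p = 0.719) and -0.19 (adjusted p = 0.151), did not pass over 11696 probe sets. The mean of both probe sets gave -0.30 and -0.47, which moved the size by over 1.5 times.

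GSR, which returns oxidised glutathione to its reduced form, was not called. It read 539, 513, 570.0 and 523 with DMSO on 205770_at. It read 452, 497, 549.5 and 632 with imatinib and 410.4, 293, 508 and 630.1 with nilotinib. The drug arrays spread to both sides of DMSO, and the 4 arrays of high actin ratio were the lowest of their groups. Its change was -0.02 (95% interval -0.38 to 0.34; limma, adjusted p = 0.942) with imatinib and -0.26 (-0.63 to 0.10; adjusted p = 0.195) with nilotinib. Without the 4 arrays of high actin ratio these were 0.13 and 0.08. The nilotinib value was called lower with median centring (-0.79) and without nilotinib replicate 4 (-0.43, adjusted p = 0.0322).

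The peroxidases could be compared for GPX4 only. GPX4, the selenoenzyme that reduces lipid peroxides in membranes, read 4504, 4747, 4346 and 4867 with DMSO on 201106_at. It read 4392, 3987, 4414 and 3827 with imatinib and 3298, 3505, 3631 and 3953 with nilotinib. The nilotinib arrays lay below all DMSO arrays, and the imatinib arrays overlapped both groups. The log2 change was -0.36 ± 0.07 (SE) with nilotinib (limma, adjusted p = 2.85e-04), called under all 21 alternatives, and -0.15 with imatinib (95% interval -0.30 to 0.00; adjusted p = 0.0982). The difference between the drugs, -0.21, did not pass (adjusted p = 0.0575), but passed without nilotinib replicate 4 (-0.25) or imatinib replicate 8 (-0.25). With median centring the imatinib value was called too, at -0.38.

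GPX1, the cytosolic peroxidase, was at background on its 1 probe set (200736_s_at). It read 7.09, 7.94, 3.92 and 3.72 with DMSO. It read 4.94, 6.47, 4.73 and 4.89 with imatinib and 9.12, 33.8, 10.4 and 16.4 with nilotinib. These are within or near the range of the bacterial control medians of the same groups, so no change is given for GPX1.

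GSTP1, the pi-class transferase, rose with imatinib in a way that 2 of the 4 arrays carried. It read 4029, 4346, 4349 and 3682 with DMSO on 200824_at. It read 4254, 4360.1, 6004 and 5930.3 with imatinib and 4326, 4168, 4545 and 4933 with nilotinib. Imatinib replicates 7 and 8 stood above every other array, and replicates 5 and 6, those of high actin ratio, lay within or just above the DMSO range. The log2 change was 0.31 ± 0.10 (SE) with imatinib (limma, adjusted p = 0.0227). It was 0.13 with nilotinib (95% interval -0.08 to 0.35; adjusted p = 0.278). The imatinib call was lost without imatinib replicate 7 (0.23, adjusted p = 0.0997), without imatinib replicate 8 (0.23, adjusted p = 0.0893) and without DMSO replicate 12 (0.26, adjusted p = 0.0776). It was lost with median centring (0.08) and with no variance trend too, and the adjusted p ran from 9.88e-05 to 0.575 over the 21 alternatives. With nilotinib GSTP1 was called higher with quantile normalization (0.30) and without the 4 arrays of high actin ratio (0.21), and lower with median centring (-0.39).

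**Figure D3:**
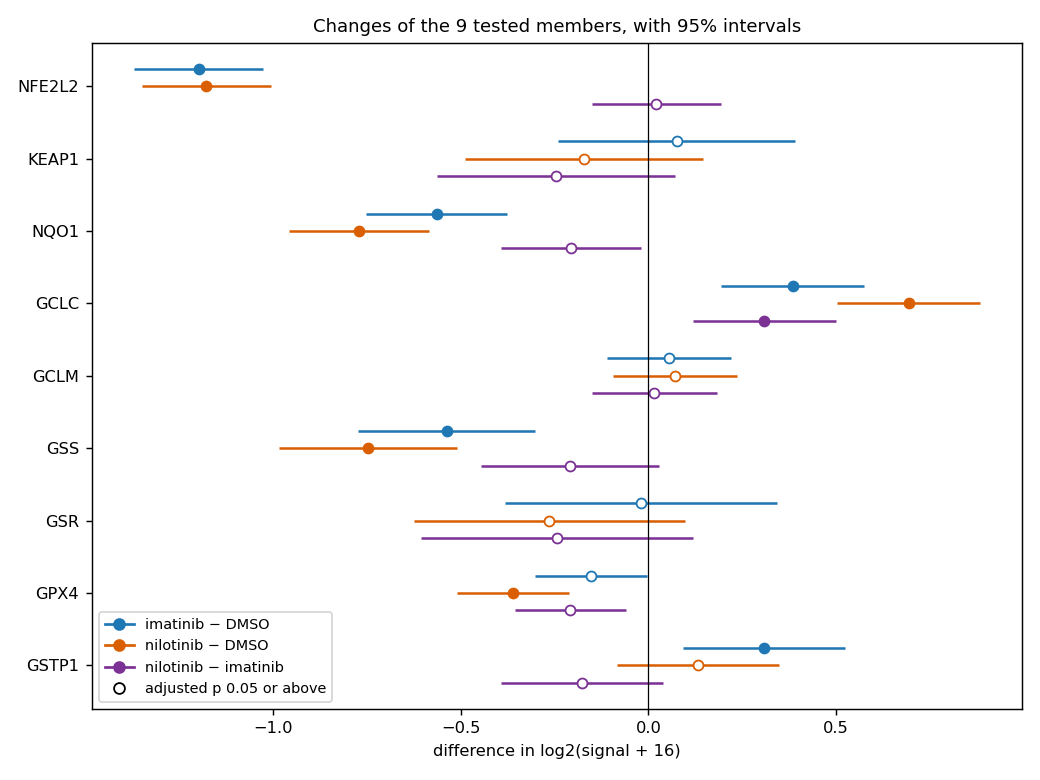
Difference in log2(signal + 16) of the 9 tested members for imatinib and nilotinib against DMSO and for nilotinib against imatinib, with 95% intervals from limma; open points have an adjusted p of 0.05 or above. NFE2L2, NQO1 and GSS lie below 0 with both drugs and GCLC above 0, and GCLC is the 1 member called between the drugs.

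The drugs were also set against each other as given, at 0.05 µM nilotinib and 0.5 µM imatinib, so this compares the arrays as treated and not equal doses. GCLC was the 1 member of 9 called, higher with nilotinib by 0.31 ± 0.09 (SE; limma, adjusted p = 0.0310), where 5.82% of all genes tested were called higher and 8.22% lower. The other 8 members were not called, and their median with GCLC was -0.21, beside 0.05 over all genes. The GCLC call was the least stable of its 3 calls. It was kept under 14 of 21 alternatives and lost with median centring (0.01), with no variance trend, without the 4 arrays of high actin ratio and without nilotinib replicate 1 or 3 or imatinib replicate 6 or 8, with adjusted p from 0.0109 to 0.957 over the alternatives. Within the arrays of high actin ratio the difference was 0.30, and within the others 0.32 (2 against 2 arrays each, no test, added after the values were seen). In the same split KEAP1 was -0.37 and -0.12, GSR -0.43 and -0.06, and GSTP1 -0.02 and -0.33.

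Cysteine is the limiting building block of glutathione, and genes listed under its supply and glutathione turnover were mostly lower with both drugs. This list also holds genes of other amino acids, such as SHMT2. Of 16 tested genes of cysteine supply and glutathione turnover, 10 fell, 1 rose and 5 were not called with imatinib, and 10 fell, 2 rose and 4 were not called with nilotinib. The share that fell was 62.5% with each drug, beside 17.3% and 23.5% of all genes. Their medians were -0.55 and -0.59, beside 0.09 and 0.15 over all genes, and stayed below -0.5 under quantile normalization, cyclic loess and median centring. CTH, which makes cysteine from cystathionine, read 1879 to 2449 on the DMSO arrays, 292 to 442 on the imatinib arrays and 232 to 388 on the nilotinib arrays, changes of -2.64 ± 0.15 and -2.76 ± 0.15 (SE). MAT2A, which makes S-adenosylmethionine at the head of the route from methionine, fell (-1.48 and -1.62). SLC3A2, the heavy chain that partners the cystine importer, fell (-1.28 and -0.99), as did SHMT2, a mitochondrial enzyme of serine and glycine (-1.37 and -1.32). GGCT, which opens gamma-glutamyl peptides in glutathione turnover, fell (-0.58 and -0.89). AHCY, which yields homocysteine, fell (-0.64 and -0.94).

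Some genes of this list went another way or could not be tested. CDO1, which burns cysteine to a sulfinate, was at 0.14 with imatinib (adjusted p = 0.756) and rose by 1.30 with nilotinib (adjusted p = 0.00183). It was dim, averaging 82.5 with DMSO, 100 with imatinib and 230 with nilotinib, beside a filter level of 80.6. ANPEP, picked out after its values were seen, rose by 0.64 and 1.03 from a DMSO mean of 77.4, below that level. No gene of the list was called higher with imatinib under quantile normalization, cyclic loess or median centring. CHAC1, which degrades glutathione and is a gene of the amino acid response, lay below the filter on its mean, and it was picked out after its values were seen. The DMSO arrays averaged 266 ± 56.6, the imatinib arrays 14.6 ± 3.02 and the nilotinib arrays 23.4 ± 14.8 (SD, n = 4), the last 2 in the range of the bacterial controls.

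**Figure D4:**
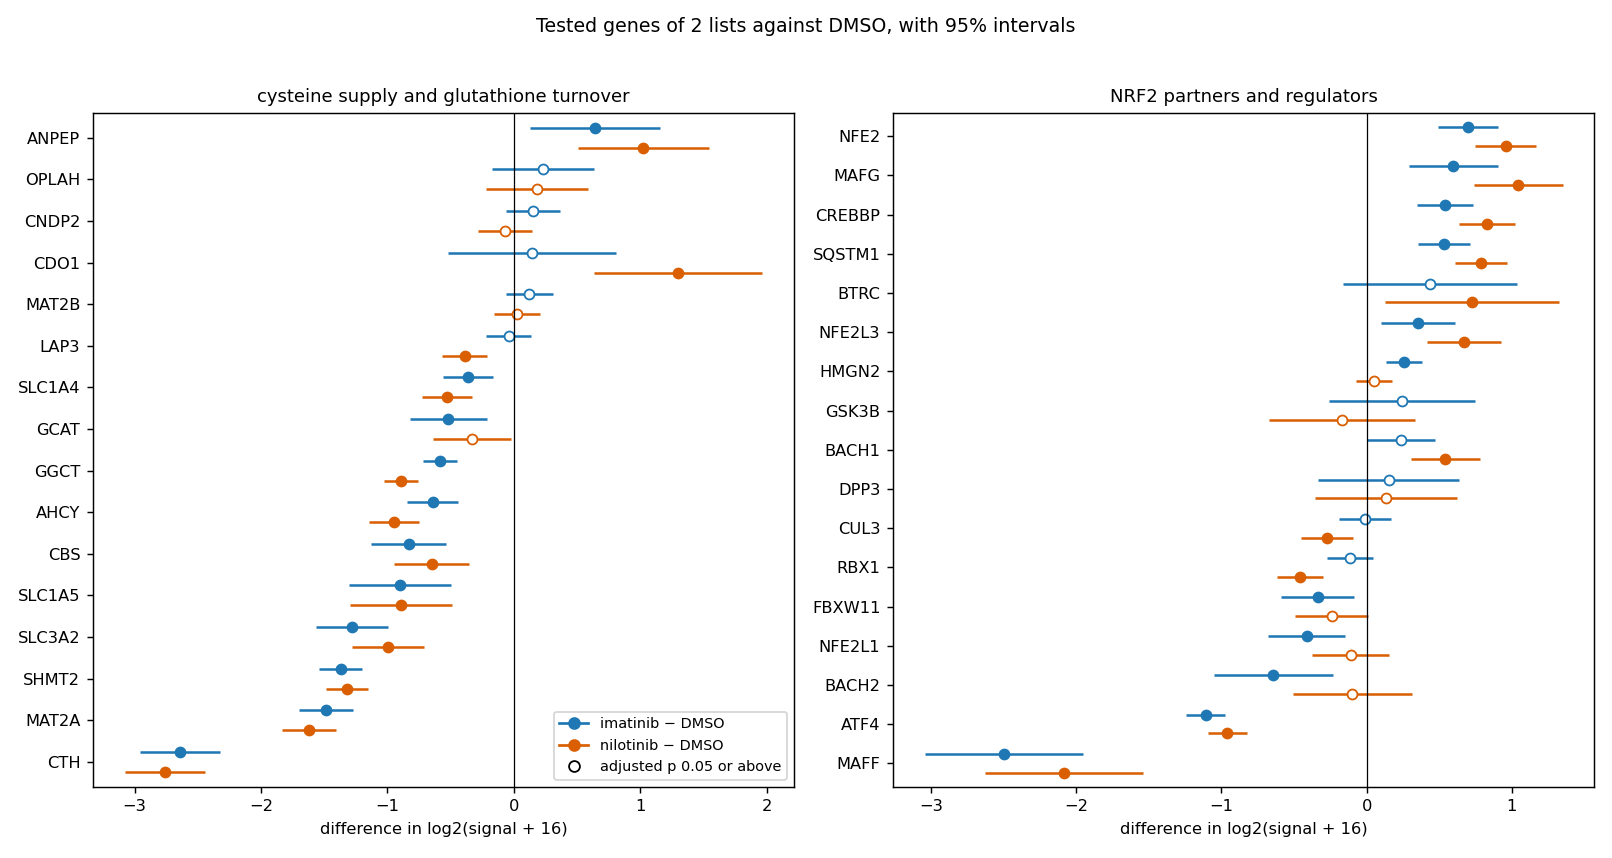
Difference in log2(signal + 16) against DMSO, with 95% intervals, for the tested genes of cysteine supply and glutathione turnover (left, 16 genes) and of NRF2 partners and regulators (right, 17 genes). On the left 10 genes are called lower with each drug; on the right filled points lie on both sides of 0.

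Among 17 tested partners and regulators of NRF2, 6 rose and 5 fell with imatinib, and 7 rose and 4 fell with nilotinib. With imatinib this was 35.3% higher and 29.4% lower, beside 22.0% and 17.3% of all genes. The nilotinib shares, 41.2% and 23.5%, were near the 34.7% and 23.5% of all genes. The medians were 0.24 and 0.05, beside 0.09 and 0.15. Under median centring 3 rose and 6 fell with imatinib, and 4 rose and 9 fell with nilotinib. MAFG, a small MAF partner, rose by 0.60 ± 0.15 with imatinib and 1.04 ± 0.15 with nilotinib (SE), the former lost with median centring (0.37). MAFF, another small MAF, fell on its brighter probe set (-2.50 and -2.09), while on 205193_at it was -0.98 (adjusted p = 0.0899) and 0.32 (adjusted p = 0.548). The brighter probe set averaged 370 with DMSO, 53.8 with imatinib and 75.2 with nilotinib. The drug means lay below the filter level (a signal of 80.6), so MAFF passed only through the DMSO arrays and the size of its fall is uncertain. BACH1, the repressor at the same element, was 0.24 with imatinib (adjusted p = 0.107) and rose by 0.54 with nilotinib (adjusted p = 5.06e-04), lost with median centring (0.02). NFE2, the erythroid relative of NRF2, rose by 0.70 and 0.96, and the coactivator CREBBP by 0.54 and 0.83. ATF4, which shares cysteine genes with NRF2 as targets, fell from 7926 ± 554 to 3666 ± 150 and 4065 ± 198 (SD, n = 4), changes of -1.11 and -0.96. RBX1, the RING subunit of the ligase that KEAP1 serves, fell by 0.46 with nilotinib, and the scaffold CUL3 fell by 0.27, the latter call lost with quantile normalization and cyclic loess. With imatinib these were -0.11 (adjusted p = 0.244) and -0.01 (adjusted p = 0.930). A dimmer CUL3 probe set, 201370_s_at, was lower with both drugs, at -0.50 (limma over 11696 probe sets, adjusted p = 0.0196) and -0.48 (adjusted p = 0.0156).

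Of 27 other described targets of NRF2, 9 rose and 8 fell with imatinib, and 12 rose and 10 fell with nilotinib. These were 33.3% higher and 29.6% lower with imatinib (22.0% and 17.3% of all genes) and 44.4% and 37.0% with nilotinib (34.7% and 23.5%). Their medians, 0.14 and 0.18, lay near the 0.09 and 0.15 of all genes. The counts depended on the scaling. Under median centring 5 rose and 9 fell with imatinib, and 5 rose and 16 fell with nilotinib. Their medians were then -0.09 and -0.34, beside -0.13 and -0.37 over all genes. The cystine importer SLC7A11 fell from 899.7 ± 85.7 to 268 ± 12.5 and 302 ± 61.1 (SD, n = 4), changes of -1.69 ± 0.14 and -1.54 ± 0.14 (SE). Its dim probe set 207528_s_at differed, at -0.45 with imatinib (adjusted p = 0.345) and 0.85 with nilotinib (adjusted p = 0.0475). Thioredoxin, its reductase and a peroxiredoxin fell as well, with TXN at -0.35 and -0.75, TXNRD1 at -0.43 and -0.70 and PRDX1 at -0.42 and -0.77. The call of TXN with imatinib was lost on the mean of its probe sets, and its dimmer probe set 216609_at was not called, at 0.07 (adjusted p = 0.748) and -0.33 (adjusted p = 0.0733). NQO2, the relative of NQO1, fell (-1.66 and -1.78). BLVRB, a biliverdin reductase, rose by 1.86 and 2.04, and FECH, which closes heme synthesis, by 1.54 and 1.86. HMOX1, which opens the heme ring, lay below the filter with mean signals of 32.2 with DMSO, 47.4 with imatinib and 32.8 with nilotinib. AKR1B10, an aldo-keto reductase, was 0.66 with imatinib (adjusted p = 0.217) and rose by 1.70 with nilotinib, a call lost without the 4 arrays of high actin ratio. AKR1B10 was dim, with mean signals of 48.6 with DMSO, 76.8 with imatinib and 186 with nilotinib. The first 2 lay below the filter level of 80.6, so it passed only through the nilotinib arrays and the size of its rise is uncertain.

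Of 15 transferases other than GSTP1, 6 rose and 2 fell with imatinib, and 10 rose and 3 fell with nilotinib, with medians of 0.49 and 0.85 beside 0.09 and 0.15 of all genes. The share called higher was 40% with imatinib, beside 22.0% of all genes, and 66.7% with nilotinib, beside 34.7%. The share called lower, 13.3% and 20.0%, was near the 17.3% and 23.5% of all genes. The nilotinib count of 10 was 6 with quantile normalization or cyclic loess and 5 with median centring. GSTM3 rose by 1.13 and 1.11, GSTM2 by 1.01 and 1.17, and GSTM1 by 0.93 and 1.44. The GSTM genes are related in sequence and their probe sets may read each other, so which of them changed is uncertain. GSTT1 of the theta class rose by 0.90 and 1.15, and MGST3, a membrane-bound transferase, by 0.99 and 1.04.

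Catalase and the glutaredoxins showed large changes of both signs. Of 14 tested genes listed as peroxidases and glutathione-linked enzymes, 6 rose and 4 fell with imatinib, and 7 rose and 4 fell with nilotinib. The medians were 0.19 and 0.28, and with median centring 1 rose and 7 fell with nilotinib. No glutathione peroxidase of this list was tested. SEPHS1 and SEPHS2, which are neither peroxidases nor glutathione-linked, were among the genes that fell. The shares were 42.9% higher and 28.6% lower with imatinib (22.0% and 17.3% of all genes) and 50% and 28.6% with nilotinib (34.7% and 23.5%). CAT, which splits hydrogen peroxide without glutathione, averaged 2870.1 ± 87.3 on the DMSO arrays, 8356 ± 538 on the imatinib arrays and 9530.2 ± 202 on the nilotinib arrays (SD, n = 4). GLRX, the cytosolic glutaredoxin, rose by 1.28 with imatinib and by 0.91 with nilotinib, the latter lost with median centring (0.39). Its dimmer probe set 209276_s_at rose by 0.94 and 1.23, so the order of the drugs for GLRX depended on the probe set read. GLRX2, the mitochondrial glutaredoxin, fell (-1.10 and -1.48), as did GLRX3 (-0.94 and -1.17) on its brightest probe set. A dimmer GLRX3 probe set, 214205_x_at, was not called, at -0.27 (adjusted p = 0.366) and -0.32 (adjusted p = 0.217). GLRX2 was also lower with nilotinib than with imatinib (difference -0.38, adjusted p = 0.00669), under all 21 alternatives.

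**Figure D5:**
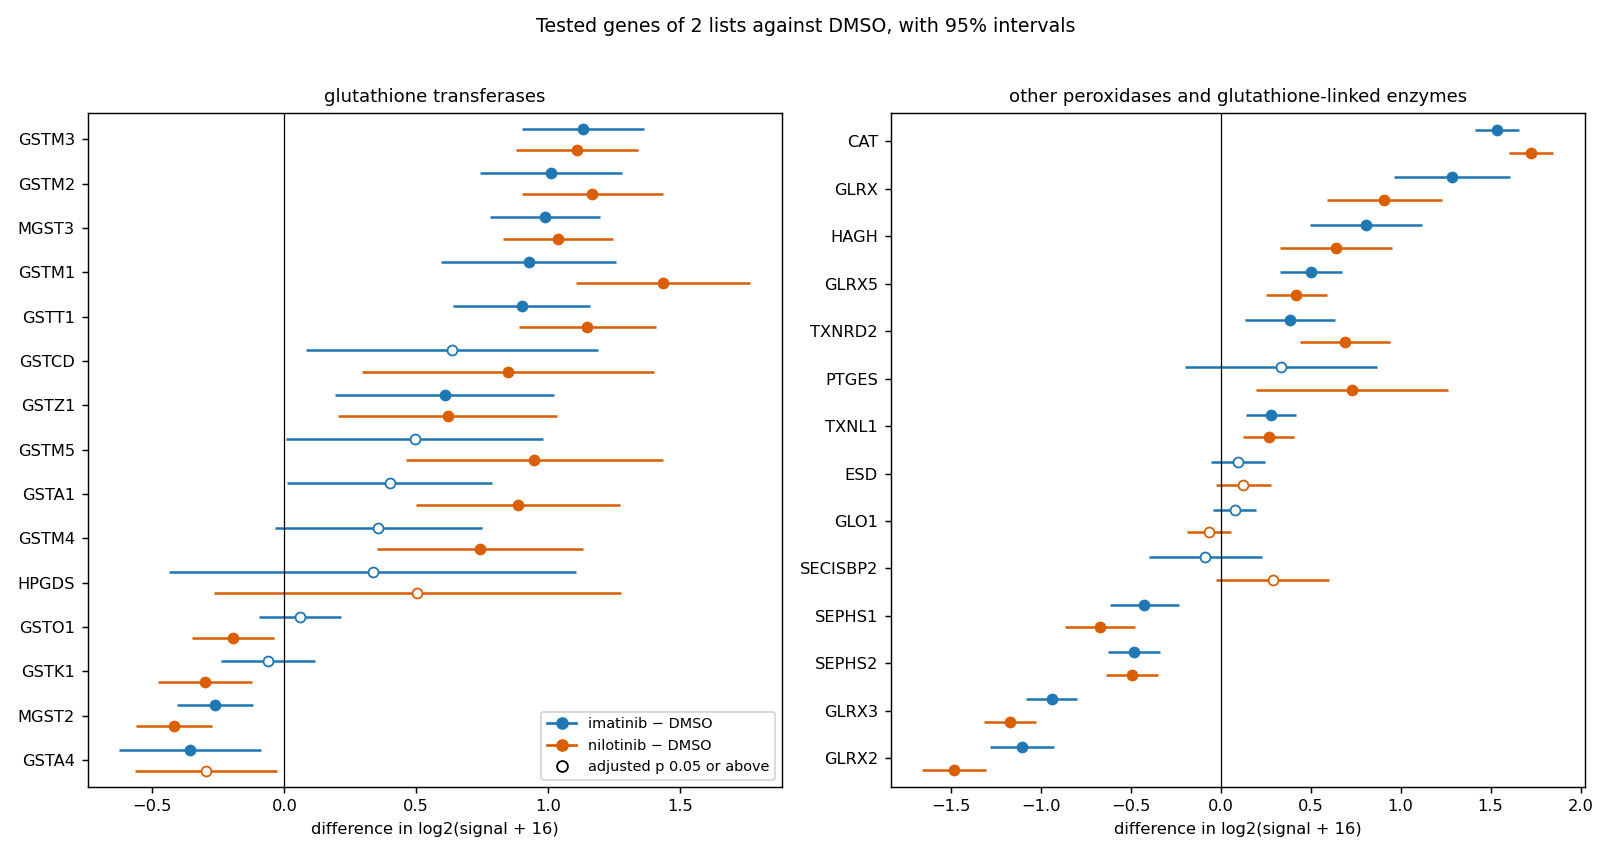
Difference in log2(signal + 16) against DMSO, with 95% intervals. The genes are 15 glutathione transferases other than GSTP1 (left) and 14 genes listed as peroxidases and glutathione-linked enzymes (right). The GSTM genes, GSTT1 and MGST3 lie above 0 on the left, and CAT and GLRX lie opposite GLRX2 and GLRX3 on the right.

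Of 15 tested genes in a list of NADPH supply, 5 rose and 7 fell with imatinib, and 4 rose and 6 fell with nilotinib. NADPH is the reductant of GSR, and the list also holds pentose phosphate enzymes that do not make it, such as TKT and RPIA. The medians of the list were 0.12 and 0.02. The shares were 33.3% higher and 46.7% lower with imatinib, beside 22.0% and 17.3% of all genes, and 26.7% and 40% with nilotinib, beside 34.7% and 23.5%. Under median centring 2 rose and 7 fell with imatinib, and 0 rose and 12 fell with nilotinib. MTHFD2, a mitochondrial folate enzyme, fell (-1.53 and -1.85), as did IDH1, the cytosolic isocitrate dehydrogenase (-1.28 and -1.36). Of the pentose phosphate pathway, TKT (-1.03 and -1.10), RPIA (-0.87 and -1.08) and PGD (-0.71 and -0.74) fell. RPE fell with imatinib (-0.69) and was -0.51 with nilotinib (limma, adjusted p = 0.0994). PGLS (0.67 and 0.64) and TALDO1 (0.35 and 0.19) rose, and with median centring neither was called higher with nilotinib. PGD, RPE, PGLS and TALDO1 were picked out after their values were seen. Of 10 tested selenoproteins, GPX4 among them, 3 rose and 2 fell with imatinib, and 3 rose and 4 fell with nilotinib, with medians of 0.00 and -0.09. The imatinib shares, 30.0% and 20.0%, were near those of all genes (22.0% and 17.3%), and with nilotinib 30.0% were higher and 40% lower (34.7% and 23.5%). SELENOP, a secreted selenium carrier, rose by 1.70 and 2.01, SELENOW by 0.63 and 0.47, and TXNRD2, the mitochondrial thioredoxin reductase, by 0.39 and 0.69. Median centring ended the nilotinib calls of SELENOW (-0.06) and TXNRD2 (0.17), and the imatinib call of TXNRD2 (0.16) was lost under 4 of 21 alternatives, among them without imatinib replicate 7. SEPHS2, which makes the selenium donor for these proteins, fell (-0.48 and -0.49).

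Likeness to NFE2L2 and GCLM was measured by Pearson's r of the log2 values over the 12 arrays, which fall into 3 groups. For NFE2L2 a high r mostly repeats the difference between the groups. The groups overlapped for GCLM, so its r follows the spread between arrays, and its highest values are the top of 8021 genes tested. The 5 tested genes most like NFE2L2 were CTH (0.993), ANXA1 (0.991), PRKCB (0.988), IFNGR1 (0.985) and GDF15 (0.984). Among the members, r with NFE2L2 was highest for NQO1 (0.91) and GSS (0.82) and lowest for GCLC (-0.80). The 5 genes most like GCLM were TAB2 (0.806), USP8 (0.801), LZTS1 (0.791), HERC5 (0.790) and INSIG1 (0.788). For GCLC, the other subunit, r with GCLM was 0.40, at rank 953 of the tested genes.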

How the data were processed

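Biotin-labelled RNA of 12 K562 samples was read with the Affymetrix U133 A 2.0 array, per the labels. The authors deposited linear intensity values per probe set. The submitters' processing notes name MAS5, with no version given in the sources used here. Trimmed means lay near 500 on all arrays, so values were used as deposited. Groups came from the titles, and 0 columns were left unmapped. Probe sets were named through the platform annotation (19064 named 1 gene, 1043 several, 2108 none, 62 were controls), and those with several genes or none were left out.

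Values were taken as log2(signal + 16). Probe sets below the 40th percentile of the mean (a signal of 80.6) were dropped, and the brightest probe set of a gene was kept. All 12 arrays were fitted with limma 3.58.1 in R 4.3.3 (1 mean per group, variance trend, 9 residual degrees of freedom) and adjusted by Benjamini-Hochberg over 8021 genes, or over 11696 probe sets where a second probe set is described. The code was tested on simulated data. Figures used matplotlib 3.10.9 in Python 3.11.15. The number of arrays limits the precision, with a median SE of 0.146 for imatinib against DMSO.

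The members and lists were chosen with earlier results of these data known. Genes marked as picked out after their values were seen were named beside those below. The genes named were all members, up to 4 called genes of largest change per list and comparison, BACH1, MAFG, HMOX1, TXNRD1, SLC7A11 and CAT, and the 5 genes most like NFE2L2 and GCLM; a further gene of the rule is not reported here. The lists were NRF2 partners and regulators, other NRF2 targets, glutathione transferases, other peroxidases and glutathione-linked enzymes, cysteine supply and glutathione turnover, NADPH supply and selenoproteins, beside markers of K562, lymphocytes, granulocytes and monocytes, and fibroblasts. Alternatives, 21 per comparison, were other pseudocounts, filters, scalings, probe set rules and variance models, array weights, the 2 groups alone, no arrays of high actin ratio, and each array left out in turn.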

Additional observations from a re-analysis of the deposited data

Results flagged for a closer look

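In 4 of 42 groups of 4 arrays, over the 14 member probe sets, 1 array stood apart from the other 3 by Dixon's criterion, where chance gives about 1 in 20. For NFE2L2 with imatinib, replicate 5 read 1800.1 while the others read 1465 to 1515. For GSS on 201415_at with imatinib, replicate 5 was the lowest at 704, while the others read 855 to 884. Replicate 5 is 1 of the 4 arrays of high actin ratio, and the part of that ratio in these values was not tested. For NQO1 on 201468_s_at with DMSO, replicate 11 was the highest at 810.4, while the others read 668 to 688. For GPX1 with imatinib, replicate 6 read 6.47 while the others read 4.73 to 4.94, all at background.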

How the results depend on the processing

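No paired analysis was possible because the replicate numbers run from 1 to 12 across the groups and none is shared. Of 567 member values recomputed under the alternatives, 521 kept direction and side of the threshold, 14 lost a call, 15 gained one and 17 changed sign. The number of members called with imatinib against DMSO, 5, was 4 to 5 when each array was left out in turn. With nilotinib against DMSO it was 5, and 8 with median centring. Between the drugs it was 1, and 2 with a filter at the 60th percentile, 8 with median centring, 0 with no variance trend, 0 without the 4 arrays of high actin ratio, and 0 to 2 with each array left out. The changes of sign were these. With median centring, imatinib against DMSO gave -0.15 for KEAP1 and -0.17 for GCLM, nilotinib against DMSO gave -0.45 for GCLM and -0.39 for GSTP1, and nilotinib against imatinib gave -0.28 for NFE2L2 and -0.28 for GCLM. Without the 4 arrays of high actin ratio, GSR was 0.13 with imatinib and 0.076 with nilotinib, KEAP1 was 0.087 with nilotinib, and GCLM between the drugs was -0.026. With the probe set of highest variance, NQO1 between the drugs was 0.14. With each array left out in turn, GSR with imatinib ran from -0.10 to 0.053, and between the drugs NFE2L2 ran from -0.011 to 0.087 and GCLM from -0.0069 to 0.064. The cause of these changes was not tested. Over all genes, the share of called genes that were higher fell from 56.0% to 26.5% with imatinib, from 59.6% to 17.4% with nilotinib and from 41.5% to 2.79% between the drugs with median centring, and for nilotinib it was 48.8% with quantile normalization and 49.4% with cyclic loess. Between the drugs it was 25.8% without the 4 arrays of high actin ratio, where 107 genes were higher and 307 lower, against 467 and 659 as deposited. Signals near the bacterial controls, such as GPX1, cannot show a change.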
